A study of Mus musculus with 4 samples.

Results

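The ATAC-seq peaks described here lie at the genes that carry the TNF-α signal from the cell surface to the IKK complex. They are the peaks of the list called on the merged libraries that overlap the 5 kb on either side of the starts of TNFRSF1A, TNFRSF1B, TRADD, RIPK1, TRAF2, BIRC2, BIRC3, MAP3K7, IKBKB and CHUK, with gene starts given on GRCh38. This rule found 12 of the 48751 peaks. All 10 genes had at least 1 peak in their window, with 1 peak at 8 genes and 2 peaks at TRADD and RIPK1.

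The 4 libraries came from HEK293, an established human cell line of embryonic kidney origin that takes up plasmids easily. All cells received a plasmid for a dCas9 fused to the HaloTag7 and 25 nM of a TRAFTAC, a DNA-RNA hybrid that tethers a TF to this fusion, and were kept with it for 6 h. The 2 libraries of the NFkB TRAFTAC and the 2 of the scrambled TRAFTAC differ in the DNA of the hybrid. Both groups were then held for 19 h in 5 ng/mL TNF-α with 25 μM HP14, the PROTAC that binds the HaloTag, so no library comes from unstimulated or untransfected cells. DMSO in place of HP14 was given to a control of the western blot. During the last 30 min all cultures were also exposed to DNase at 200 units/mL. Transfection was transient, and the share of cells that took up the plasmid is not given in the sources used here. The list holds 1 value per peak for all libraries together. Each value below therefore describes TNF-α-treated cells as a pool of both TRAFTACs, and neither a difference between them nor a replicate error could be computed.

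TNF-α binds the receptors encoded by TNFRSF1A (TNFR1) and TNFRSF1B (TNFR2). TNFR1 recruits TRADD, an adaptor with a death domain, which brings in the kinase RIPK1 and the adaptor TRAF2, and TRAF2 carries the ubiquitin ligases cIAP1 (BIRC2) and cIAP2 (BIRC3). The ubiquitin chains they build hold TAK1 (MAP3K7) and the IKK complex, whose kinases are IKKα (CHUK) and IKKβ (IKBKB), and active IKK releases NFkB from its inhibitors. ATAC-seq measures none of these proteins. It shows where the Tn5 transposase could cut the DNA, and a peak at a gene start is commonly read as an open promoter.

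The starts of 8 of the 10 genes lay inside a peak, and those of TNFRSF1B and TRAF2 did not. As a background, 14.4% of the 10 kb bins of chromosomes 1 to 22 and X held a peak, and 1.15% of the bases of these chromosomes lay under one, against 10 of 10 windows and 8 of 10 starts here. Bins and bases take in sequence without genes, and the starts of other genes were not analysed here, so these shares do not set the 10 genes apart from other genes. In the covering peaks the summit, the position with the most stacked fragments, was a median of 33.5 bp away from the gene start. It lay within 100 bp of the start at 6 genes. The exceptions were TNFRSF1A, with the summit 285 bp downstream, and MAP3K7, with the summit 176 bp upstream. Summits fell upstream of the start at 5 genes and downstream at 3.

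**Figure D1:**
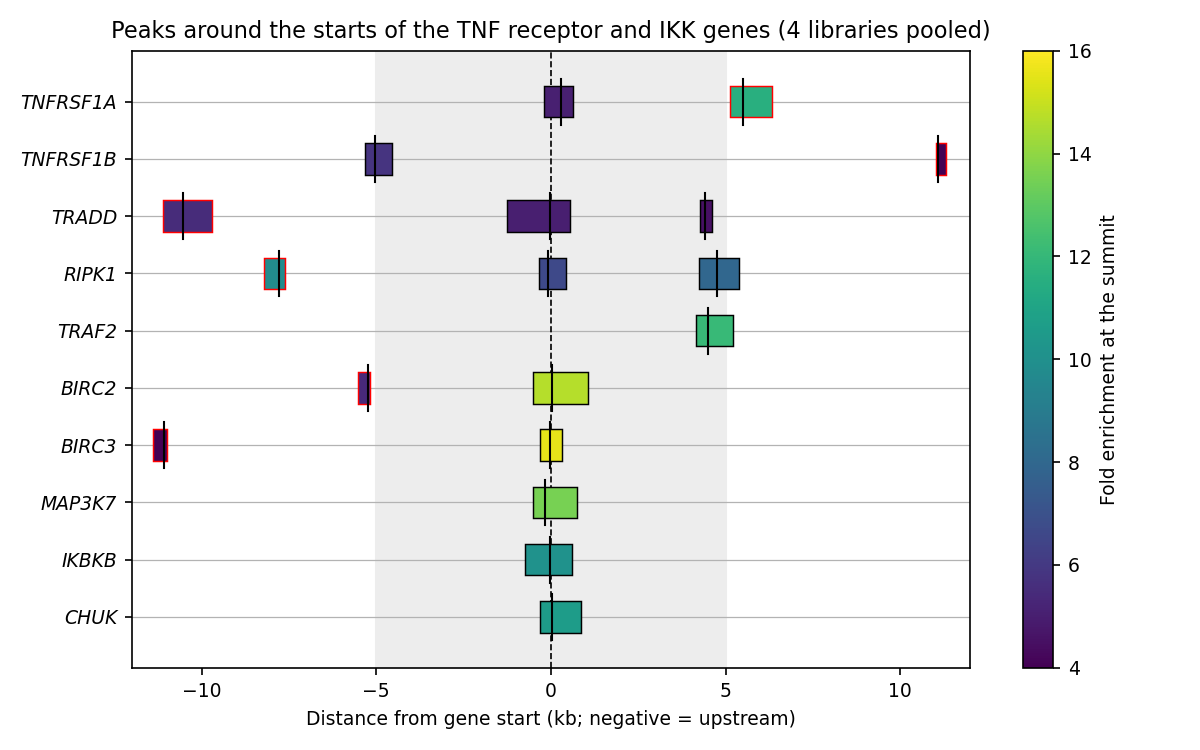
Each row is a gene, drawn in its direction of transcription, with distance from the gene start in kb on the horizontal axis. Bars are peaks, their colour gives the fold enrichment, black ticks are summits, the grey band is the window of 5 kb either side, and red outlines mark peaks that do not touch the window. Peaks cover the starts of 8 genes, while TRAF2 has its peak 4166 to 5209 bp downstream and TNFRSF1B its peak 4551 to 5321 bp upstream.

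For each peak the list gives the fold enrichment, a linear ratio of the fragments at the summit to those of the local background, and the −log10 q-value of that excess. The pileup (the fragments stacked at the summit) and its background were worked back from the fold together with the p-value, and a 95% exact Poisson interval on the pileup was carried over to the fold. These intervals cover the counting error of the pileup only. The background was taken as exactly known, and the choice of the highest position as summit was not allowed for. Over the 12 peaks the median fold was 9.04, beside 5.60 over all peaks. The median width was 1086 bp, beside 590 bp, and the median −log10 q-value was 102, beside 23.3. Above the median of all peaks stood 11 of the 12 in width, 11 in −log10 q-value and 9 in fold. Against only the stronger peaks of the list, those of −log10 q-value 5 or more, these counts were 10, 9 and 8. The peaks that passed below the median were those of BIRC3 in width, TNFRSF1A and the downstream one of TRADD in −log10 q-value, and TNFRSF1B in fold. Above the upper quartile stood 7 in width, 7 in −log10 q-value and 6 in fold. The list was not split into peaks at gene starts and elsewhere, and the start peaks of other genes were not analysed here. These comparisons therefore do not set the 10 genes apart from other genes.

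Both receptor genes had peaks close to the median fold of the list. At TNFRSF1A, which encodes the receptor present on most cell types, the start was covered by a peak at chr12:6341480-6342304 that was 825 bp wide. Its fold was 5.06 (interval 4.03 to 6.28) with 81 fragments at the summit, and its −log10 q-value was 29.8. The width exceeded that of 67.1% of all peaks, whereas the fold exceeded that of only 44.4%. Peaks within 10% of this width had a median fold of 8.55, above the upper end of the interval. A far stronger peak lay 130 bp beyond the window, at chr12:6335791-6336984, with its summit 5502 bp downstream of the start. It was 1194 bp wide and had a fold of 11.6, 437 fragments at the summit and a −log10 q-value of 295.

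TNFRSF1B encodes the receptor that binds TRAF2 without a death domain and whose expression is known to be more restricted, with immune and endothelial cells as typical sites. No peak lay between 4551 bp upstream and 11026 bp downstream of its start. The window was reached only by a peak at chr1:12161670-12162440, which was 771 bp wide with its summit at 5029 bp upstream, just past the window's edge. It had the lowest −log10 q-value of the 12, 18.4, which exceeded that of 44.1% of all peaks. Its fold of 5.79 (4.21 to 7.78) rested on 42 fragments, an average of 10.5 per library. The background there was 6.42 fragments, close to the lowest of the list at 6.32. Such a background was common, since 34.8% of all peaks had a lower one and the lower quartile was also 6.32. The next peak downstream was 272 bp wide, with a fold of 3.01 and a −log10 q-value of 4.15. A start outside every peak says that no excess was called there at the pooled depth, not that the promoter was closed.

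The adaptors and the kinase of the receptor complex differed in where their peaks lay. TRADD had the widest peak of the set, 1802 bp at chr16:67159370-67161171, wider than 97.1% of all peaks. It reached from 1262 bp upstream to 539 bp downstream of the start, with the summit 26 bp upstream. The fold was nevertheless 5.00 (4.15 to 5.99), below the median of all peaks, with 117 fragments at the summit over a background of 22.6. Peaks of like width had a median fold of 8.76. The second TRADD peak, at chr16:67155293-67155631, lay 4278 to 4616 bp downstream and was the narrowest of the set with 339 bp. Its fold was 4.51 (3.60 to 5.57), the lowest of the 12, and it had 83 fragments at the summit. The fold intervals of the 2 TRADD peaks overlapped.

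RIPK1, whose product is a scaffold for ubiquitin chains as well as a kinase in cell death, had a peak over its start at chr6:3063618-3064408. This peak was 791 bp wide with a fold of 6.66 (5.69 to 7.75), 164 fragments at the summit and a −log10 q-value of 76.1. A second peak followed after a gap of 3808 bp, at chr6:3068217-3069343, with its summit 4749 bp downstream. It was wider, at 1127 bp, and had 1.43 times the fragments, 234 (205 to 266) against 164 (140 to 191), so that the pileup intervals did not overlap. In fold the intervals of the pair overlapped, with 7.97 (6.99 to 9.06) for the downstream peak. Its listed background was also higher, 28.5 against 23.8 fragments.

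TRAF2, the adaptor that carries the cIAP ligases, had no peak from 15220 bp upstream to 4166 bp downstream of the start used here. Its single peak, at chr9:136886078-136887121, lay with its summit 4507 bp downstream and was 1044 bp wide. In strength it ranked with the covering peaks of the set. The fold was 12.1 (10.8 to 13.4) with 335 fragments at the summit, and the −log10 q-value of 233 exceeded that of 92.2% of all peaks. Whether a transcript of TRAF2 starts under this peak was not examined, because the transcripts of the gene were not used here.

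**Figure D2:**
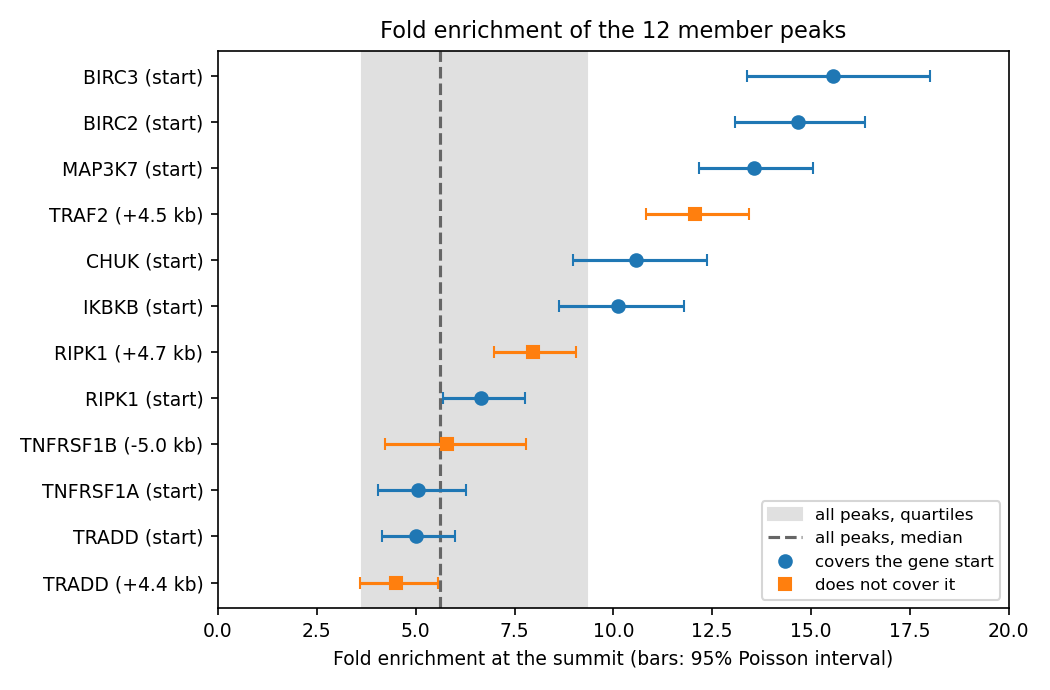
Points give the fold enrichment at the summit of each of the 12 peaks (horizontal axis, linear ratio), in descending order, and bars are 95% exact Poisson intervals from the summit pileup. Circles cover the gene start and squares do not, with the distance of their summit from it in brackets. The grey band spans the quartiles of all peaks, 3.65 to 9.33, with the median of 5.60 as a dashed line, and the peaks of BIRC3, BIRC2, MAP3K7 and TRAF2 lie above the band with their whole intervals.

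BIRC2 and BIRC3, the genes of the 2 cIAP ligases, are neighbours on chromosome 11 with starts 29764 bp apart, and BIRC3 is a known target gene of NFkB. Their start peaks had the highest folds of the set, 15.6 (13.4 to 18.0) at BIRC3 and 14.7 (13.1 to 16.4) at BIRC2. These exceeded the folds of 97.7% and 95.7% of all peaks. The intervals overlapped, and the order of the pair is therefore not resolved in fold. The peaks were of very different extent. At BIRC2 the peak at chr11:102346709-102348266 was 1558 bp wide, which is 2.53 times the 617 bp of the BIRC3 peak at chr11:102317138-102317754. BIRC2 also had 1.74 times the fragments at its summit, 311 (277 to 348) against 179 (154 to 207), and the pileup intervals did not overlap. The folds were nevertheless close, as the pileup is divided by a background of 20.3 fragments at BIRC2 and 10.6 at BIRC3. How far each peak's own fragments raised its background was not tested. Among all peaks, those as narrow as the BIRC3 peak had a median fold of 5.89, far below its interval. For BIRC2 the peaks of like width had 9.38. Both summits lay close to the gene start, 23 bp downstream at BIRC2 and 24 bp upstream at BIRC3.

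Between both starts lay 1 further peak, at chr11:102341691-102342044, which ended 170 bp outside the window of BIRC2 on its upstream side. It was 354 bp wide, with a fold of 5.38, 43 fragments at the summit and a −log10 q-value of 17.4, and was thus much weaker than the start peaks on either side of it. Upstream of BIRC3 the next peak began 10988 bp away and was weak as well, with a fold of 3.14 and a −log10 q-value of 4.50.

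MAP3K7 encodes TAK1, the kinase that activates IKK. Its start peak at chr6:90586345-90587588 had the highest −log10 q-value of the 12, 260, which exceeded that of 93.8% of all peaks, and the most fragments at the summit, 350 (314 to 389). The fold was 13.5 (12.2 to 15.0) and the width 1244 bp. Unlike most of the set, the summit stood away from the start, at 176 bp upstream in a peak that extended 502 bp upstream and 741 bp downstream. The peak stood alone, with the next ones 23450 bp upstream and 107500 bp downstream.

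The 2 IKK kinase genes had start peaks of very similar size. IKBKB, on chromosome 8 (chr8:42270553-42271893), had a peak of 1341 bp with a fold of 10.1 (8.63 to 11.8), 164 fragments at the summit and a −log10 q-value of 104. CHUK, on chromosome 10 (chr10:100228754-100229931), had a peak of 1178 bp with a fold of 10.6 (8.97 to 12.4), 153 fragments and a −log10 q-value of 99.9. Their fold intervals overlapped over most of their length, as did the pileup intervals of 140 to 191 and 130 to 179. Both folds were close to the medians of peaks of like width, 10.4 for IKBKB and 10.99 for CHUK. The summits were 28 bp upstream at IKBKB and 39 bp downstream at CHUK. No other peak lay within 49530 bp upstream and 66648 bp downstream of the IKBKB start. At CHUK the corresponding distances were 37587 bp and 42976 bp.

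Ordered by fold, the 8 start peaks ran from BIRC3 over BIRC2, MAP3K7, CHUK, IKBKB, RIPK1 and TNFRSF1A to TRADD. Intervals of direct neighbours in this order overlapped in every case except IKBKB and RIPK1, where the lower end at IKBKB (8.63) was above the upper end at RIPK1 (7.75). This gap in fold was not a gap in pileup, since RIPK1 had 164 fragments at the summit, IKBKB 164 and CHUK 153. BIRC3 had 3.11 times the fold of TRADD.

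**Figure D3:**
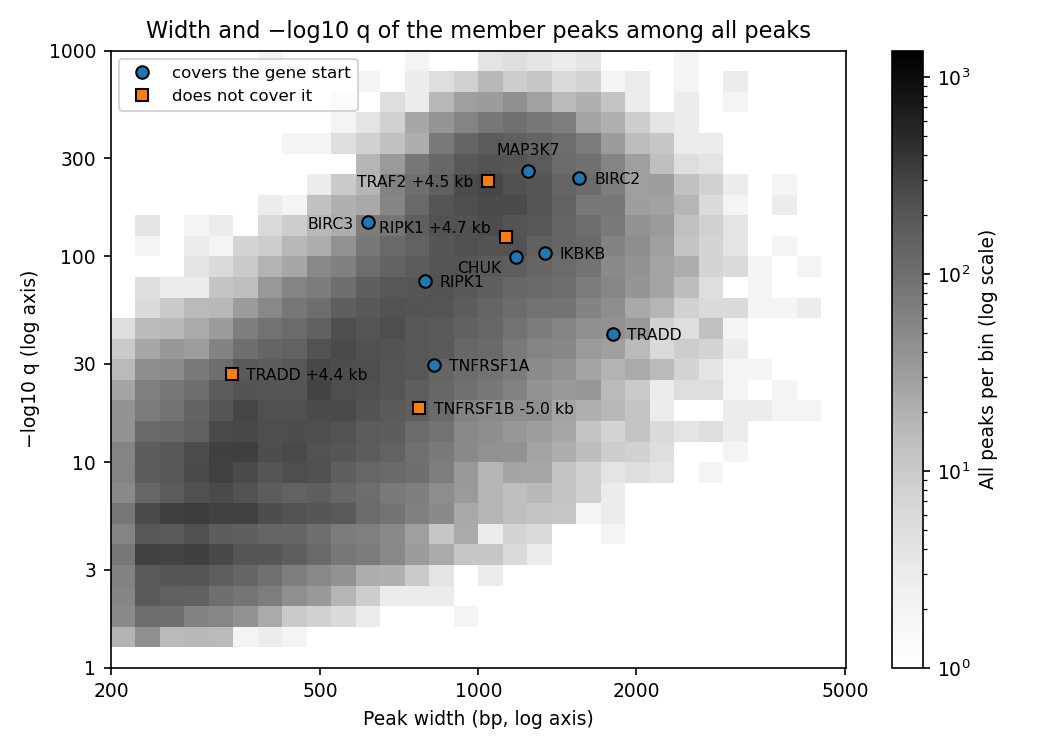
Peak width in bp (horizontal, log axis) is plotted against the −log10 q-value (vertical, log axis) for the 12 peaks, as circles where they cover a gene start and squares otherwise. Grey shading counts all peaks per bin, with 68 peaks outside the plotted range. BIRC3 lies at the upper left edge of the dense region, with a −log10 q-value of 146 at 617 bp, and TRADD at the lower right, with 42.0 at 1802 bp.

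The computed correlation of width with strength was lower over the 12 peaks than over the list. Spearman's rho between width and −log10 q-value was 0.43 over the 12 peaks and 0.73 over all 48751. Between width and fold it was 0.21 and 0.64. With 12 peaks rho is imprecise and no interval was computed, so a difference from the list is not shown. The 12 peaks also share their libraries, and some lie on the same chromosome, so these are descriptions only. The plot of width against −log10 q-value shows which peaks lie off the general trend. At 617 bp the BIRC3 peak was narrow for its −log10 q-value of 146, whereas the TRADD start peak, at 1802 bp, had a −log10 q-value of only 42.0.

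**Figure D4:**
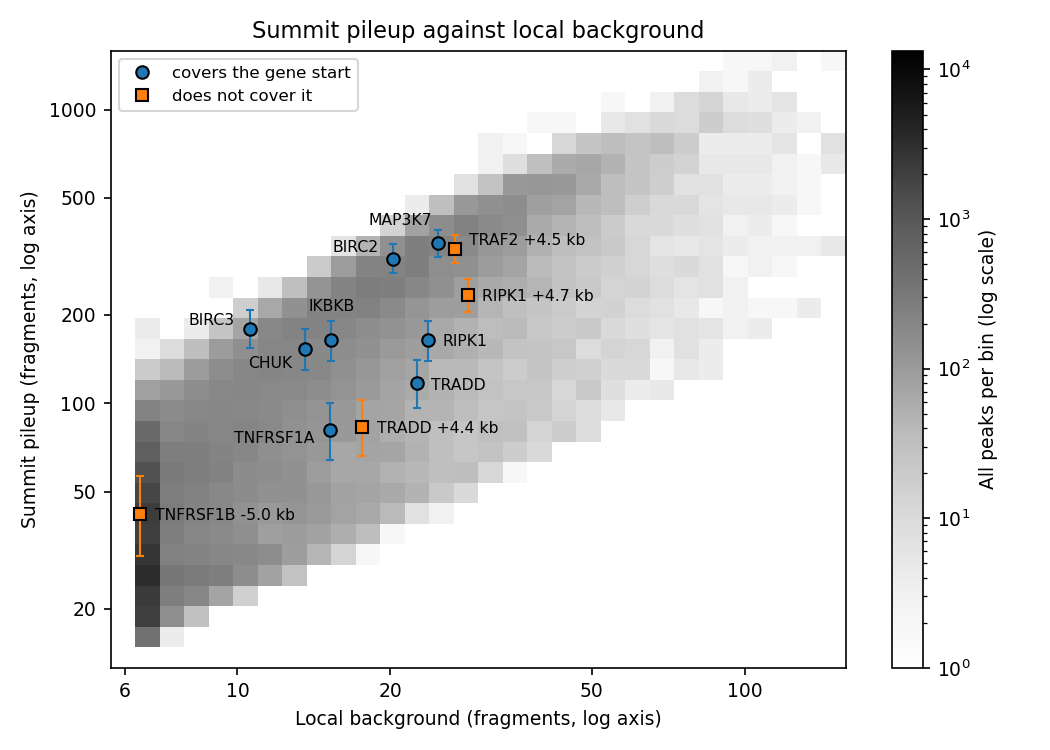
The local background (horizontal, fragments, log axis) is plotted against the summit pileup (vertical, fragments, log axis) with 95% exact Poisson intervals for the 12 peaks, circles covering the gene start and squares not. Grey shading counts all peaks with a recovered pileup, 147 of them outside the plotted range. BIRC3 lies near the upper edge of the shaded region, with 179 fragments over a background of 10.6. BIRC2, with 311 over 20.3, lies below that edge in a densely filled part. The TNFRSF1B peak lies near the lowest backgrounds, which many peaks of the list share, with 42 fragments over 6.42.

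The local background itself ranged from 6.42 fragments at the TNFRSF1B peak to 28.5 at the downstream RIPK1 peak, with a median of 19.0 beside 8.56 over all peaks. Fold and pileup therefore rank the set differently. RIPK1 and IKBKB had the same 164 fragments at the summit of their start peaks, but the fold was 6.66 over a background of 23.8 at RIPK1 and 10.1 over 15.3 at IKBKB. The part of the peaks' own fragments in their backgrounds was not tested.

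The number of peaks around the genes varied widely. Within 500 kb of the start lay 100 peaks at TRAF2, 57 at TNFRSF1A, 55 at RIPK1, 52 at TRADD and 45 at TNFRSF1B, beside a median of 29 around all peaks of chromosomes 1 to 22 and X (quartiles 17 and 48). CHUK had 35, IKBKB 31, MAP3K7 30, and BIRC2 and BIRC3 23 each. TNFRSF1B, whose own start lay outside every peak, thus had more peaks around it on this scale than the median. Within 50 kb the counts went from 2 at MAP3K7 and IKBKB to 10 at TNFRSF1A, TRADD and TRAF2, beside a median of 4.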

How the data were processed

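ATAC-seq was performed on HEK293 cells in 4 libraries of 50000 cells each, with 8 cycles of PCR and a stated minimum of 20000000 read pairs per library according to the labels. Per the labels, the submitters' processing notes name Trimmomatic, Bowtie2, Picard, MACS2 and GRCh38.p10. The labels name the mouse as organism, whereas the cell line and the assembly are human. Per the labels, MACS2 peaks of all libraries merged were deposited. It gives for each peak a score made by the authors' peak caller from the q-value, the deposited fold enrichment as a linear ratio, and the −log10 p-value and −log10 q-value. Columns of single samples number 0, and the depth per library is unknown from the list.

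Peaks were assigned to the 10 genes by any overlap with 5 kb either side of the gene starts on GRCh38. All 10 genes are named, with every peak in their windows. The members and lists were chosen with earlier results of these data known. Strands were taken from general knowledge, and positions are 1-based. To recover the pileup, whole numbers of fragments were tried until the Poisson tail matched the p-value of the list, with a pseudocount of 1 and a misfit of at most 0.001. This succeeded for 99.95% of all peaks and all 12 members, and the search was tested on simulated data. Python 3.11.15, numpy 2.4.6, pandas 2.3.3, scipy 1.17.1 and matplotlib 3.10.9 were used. No test between groups was made. Other genes of the pathway, markers of the cell line, exons and introns, and promoter sequences were not analysed here, since the reference at hand was a mouse assembly.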

Additional observations from a re-analysis of the deposited data

How the results depend on the processing

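The number of peaks was 12 and went from 8 with a window of 2 kb to 16 with one of 10 kb, within 1.5 times of the value reported. It was 11 when the summit had to lie inside the window, which left 9 genes with a peak and removed TNFRSF1B, and 14 with 5.5 kb, an alternative chosen after the data were seen. With 2 kb, 8 genes had a peak, and TNFRSF1B and TRAF2 had none. The number of covered gene starts was 8 when a −log10 q-value of 5 or more was required, with peaks closer than 500 bp joined, and, chosen after the data were seen, with the summit within 300 bp of the start. The first of these removed no peak of the set and the joining merged none, so neither says anything about stability. Across all alternatives the median width lay between 1086 and 1211 bp, the median fold between 8.88 and 10.3 and the median −log10 q-value between 88.0 and 104. When all peaks under a −log10 q-value of 5 were dropped, the share of peaks below each gene's strongest peak was lower by 0.973 to 8.72 percentage points, and TNFRSF1A passed from above the median of the list to below it, from 55.7% to 48.8%. The counts of the set above the medians of these stronger peaks were added after the data were seen. No replicate could be left out, since single libraries have no values in the list. No paired analysis was possible because all 4 libraries were pooled before peak calling. Depth limits weak peaks most, with a counting SD of 15.4% on the 42 fragments at TNFRSF1B and 5.35% on the 350 at MAP3K7.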
